A study of Mus musculus with 12 samples.

Results

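The 8 CXC and CX3C chemokine ligands *Cxcl1*, *Cxcl2*, *Cxcl3*, *Cxcl10*, *Cxcl12*, *Cxcl14*, *Cxcl16* and *Cx3cl1* were described in cells sorted as EGFR+ from mouse glioblastomas (GBMs). They were taken by gene symbol from the deposited expression table, which held all 8 of them among 18180 genes. The GBMs were end-stage tumors raised in adult mice that carried a conditional human EGFR transgene, lacked Cdkn2a, had a conditional luciferase reporter, and received a Cre lentivirus in the striatum. Strain background was mixed, with contributions from C57Bl/6J, 129S4, FVBN/J and Balb/cJ per the labels and also SJL per the study's methods. Each tumor gave all 4 populations, so genotype and virus did not differ between populations within a tumor. Which of the study's Cre lentiviruses raised these tumors is not given in the sources used here. Dissociated cells of each of 3 tumors (T3, T4 and T5) were stained for EGFR together with either PDGFR or Galectin-1, and 4 populations were collected, EGFR+PDGFRA+, EGFR+PDGFRA-, EGFR+GAL1+ and EGFR+GAL1- cells. These gave 12 bulk RNA-seq libraries, 3 per population, with the tumor as the replicate. Because the PDGFR and Galectin-1 sorts divided the EGFR+ cells of the same tumor by separate criteria, a PDGFRA population and a GAL1 population can hold the same kind of cell. No population came from tumor-free brain.

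Chemokines are small secreted proteins that direct the movement of leukocytes through receptors on the cell surface, and the CXC and CX3C families are named for the spacing of the first cysteines. Cxcl1, Cxcl2 and Cxcl3 share the receptor Cxcr2 and draw neutrophils, Cxcl10 is induced by interferon and draws T and NK cells through Cxcr3, and Cxcl12 binds Cxcr4 and the scavenging receptor Ackr3. Cxcl16 and Cx3cl1 are unusual in being made as membrane proteins with the chemokine domain on a stalk, from which the proteases Adam10 and Adam17 release it. Their receptors are Cxcr6 and Cx3cr1, and in the brain Cx3cl1 is best known as a neuronal ligand for Cx3cr1 on microglia.

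*Cxcl1*, *Cxcl2*, *Cxcl3* and *Cxcl10* lie on chromosome 5, *Cxcl12* on chromosome 6, *Cx3cl1* on chromosome 8, *Cxcl16* on chromosome 11 and *Cxcl14* on chromosome 13. Promoters of 7 of the 8 ligands were found in the RefSeq table used here, the exception being *Cxcl16*. Those of *Cxcl1*, *Cxcl2* and *Cxcl3* are shown because their transcripts ran closely together over the libraries, although that of *Cxcl16* ran closely with them too. The promoter of *Cxcl10* is shown because *Cxcl10* is the interferon-induced ligand. The sequences are from RefSeq on GRCm38.p6, not on the mm39 build of the expression table, and end at the base before the transcription start. They cover chr5:90891145-90891244 on the plus strand for *Cxcl1*, chr5:90903799-90903898 on the plus strand for *Cxcl2*, chr5:90786001-90786100 on the plus strand for *Cxcl3* and chr5:92348890-92349139 on the minus strand for *Cxcl10*. Capitals mark matches on either strand to 3 patterns. The first is GGGAATTTCCC, the longest run of bases that the promoters of *Cxcl1*, *Cxcl2* and *Cxcl3* have in common, which is a form of the kappa B motif bound by NF-kappa B. The second is the looser kappa B pattern of GGG and TTCC spaced by any 3 bases, which every copy of the first also matches, and the third is TTTC and TTTC spaced by any 2 bases, the core of the interferon-stimulated response element.
Cxcl1: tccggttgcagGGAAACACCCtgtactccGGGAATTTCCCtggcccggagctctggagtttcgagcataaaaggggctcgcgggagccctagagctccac
Cxcl2: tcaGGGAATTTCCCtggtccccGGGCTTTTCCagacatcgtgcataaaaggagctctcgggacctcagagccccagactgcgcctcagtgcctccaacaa
Cxcl3: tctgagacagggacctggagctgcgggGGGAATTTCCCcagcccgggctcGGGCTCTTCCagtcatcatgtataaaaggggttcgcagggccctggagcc
Cxcl10: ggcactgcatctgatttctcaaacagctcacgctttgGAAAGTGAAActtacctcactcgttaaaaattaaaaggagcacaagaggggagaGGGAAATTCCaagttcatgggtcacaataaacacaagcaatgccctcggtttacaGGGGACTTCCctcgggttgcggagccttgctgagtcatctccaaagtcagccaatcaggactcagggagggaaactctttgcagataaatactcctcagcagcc
The shared run began 71 bases before the start in *Cxcl1*, 97 bases in *Cxcl2* and 73 bases in *Cxcl3*, and was found within 250 bases before the start of 14 of 27025 genes (0.0518%), these 3 included. The looser kappa B pattern was found in 5.31% of genes, and among the ligands in *Cxcl1*, *Cxcl2*, *Cxcl3* and *Cxcl10*, where it began 159 and 104 bases before the start. The interferon pattern was found in 3.46% of genes, and among the ligands in *Cxcl10* and *Cxcl14*. The patterns were chosen after the sequences and earlier results were known, and a match describes letters, not binding.

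Values are the deposited log2 CPM, read counts scaled to library size with factors from the trimmed mean of M-values, and a difference of 1 on this scale is a doubling. Effective library sizes recovered from the values ran from 9481597 to 27861389 reads, and 3 reads, taken as the floor of detection, lay between -2.99 and -1.44 log2 CPM. Every ligand was above this floor in every library, and the lowest was *Cxcl3* in GAL1- cells, at 21 to 68.25 reads. Differences were tested with limma on all 18180 genes, with a term for the tumor, and a gene was called at a Benjamini-Hochberg adjusted p under 0.05. *Lgals1*, which encodes Galectin-1, differed by 1.29 on the log2 scale between GAL1+ and GAL1- cells (limma adjusted p = 0.000967). All 4 populations were sorted as EGFR+, yet their *Egfr* levels differed. GAL1+ libraries averaged 8.41 log2 CPM of *Egfr* against 10.51 for GAL1- libraries, and *Egfr* was called lower in GAL1+ cells. The PDGFRA+ mean was 10.18 and the PDGFRA- mean was 9.45. Whether reads of the human EGFR transgene were counted under *Egfr* was not tested. *Pdgfra* was higher in PDGFRA+ than in PDGFRA- cells of each tumor (log2 fold change 1.60). It was not called (limma adjusted p = 0.249), in a comparison where 0% of all genes were called. *Pdgfra* was as high in GAL1- cells (10.55 log2 CPM) as in PDGFRA+ cells (10.30). *Ptprc*, which encodes the leukocyte antigen CD45, was at 8.65 log2 CPM in GAL1+ cells, 7.46 in PDGFRA- cells, 6.92 in PDGFRA+ cells and 4.60 in GAL1- cells, although the study describes the sorted cells as CD45-. The PDGFRA- library of T5 stood apart from the other PDGFRA- libraries: on the first principal component (58.5% of the variance) it was at 82.4, among the GAL1+ libraries (63.8 to 120.1), whereas those of T3 and T4 were at -13.5 and -16.8.

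**Figure D1:**
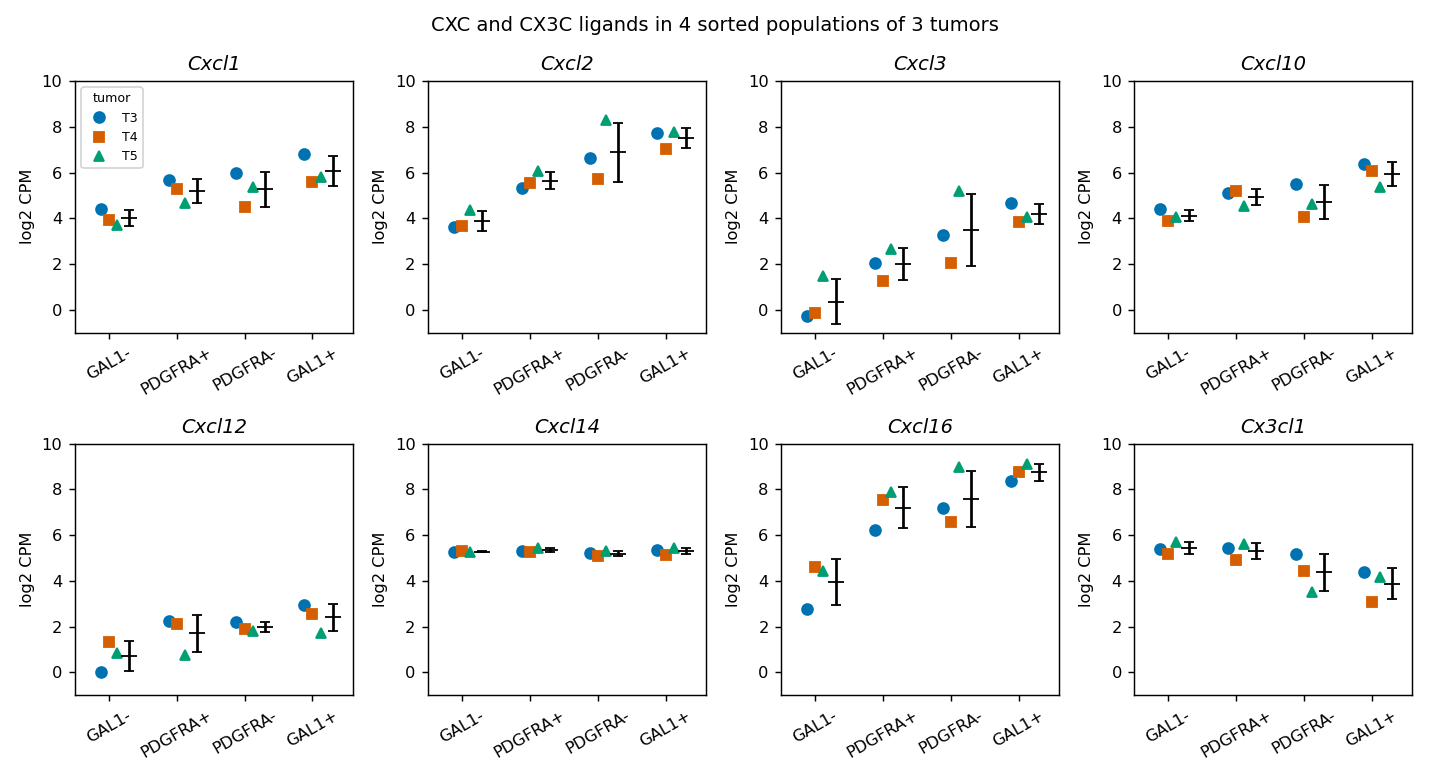
Log2 CPM of each ligand (vertical axis) in each library, by population (horizontal axis); symbols are the tumors T3, T4 and T5, and the bar is the mean ± SD of 3 tumors. *Cxcl16* ran from 2.79 in a GAL1- library to 9.13 in a GAL1+ library, *Cxcl14* stayed between 5.08 and 5.44 throughout, and *Cx3cl1* had its lowest mean in GAL1+ cells.

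The first question was which ligands differed between cells with and without surface Galectin-1. Of the 8 ligands, 6 were higher and 1 was lower in GAL1+ than in GAL1- cells, in a comparison in which 58.2% of all genes were called (28.9% higher and 29.3% lower). The largest rises were those of *Cxcl16* (27.9-fold), *Cxcl3* (14.3-fold) and *Cxcl2* (12.3-fold), *Cx3cl1* fell 2.93-fold, and *Cxcl14* was not called. The median log2 fold change was 1.93 over the 8 ligands and -0.03 over all genes. For the 7 called ligands the ranges of the 3 GAL1+ and 3 GAL1- libraries did not overlap, as for 60.6% of all genes. In bulk libraries, fewer cells of a type and less RNA per cell cannot be told apart.

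Among the neutrophil-attracting ligands, *Cxcl2* was at 3.62, 3.64 and 4.37 log2 CPM in GAL1- cells of T3, T4 and T5, at 5.34, 5.52 and 6.06 in PDGFRA+ cells, at 6.63, 5.71 and 8.28 in PDGFRA- cells, and at 7.71, 7.01 and 7.79 in GAL1+ cells. Every GAL1- library was below every other library, and the single highest value was that of the PDGFRA- cells of T5. GAL1+ cells exceeded GAL1- cells by 3.63 on the log2 scale (standard error (SE) 0.35, adjusted p = 5.08e-05). *Cxcl3* was at -0.26, -0.15 and 1.47 log2 CPM in GAL1- cells, at 2.04, 1.26 and 2.68 in PDGFRA+ cells, at 3.25, 2.03 and 5.17 in PDGFRA- cells, and at 4.67, 3.85 and 4.05 in GAL1+ cells. T5 held the highest *Cxcl3* value in every population but GAL1+, and GAL1- and PDGFRA+ cells overlapped. The difference of GAL1+ over GAL1- cells was 3.84 (SE 0.49, adjusted p = 0.000166). *Cxcl1* moved less, from 4.38, 3.94 and 3.70 log2 CPM in GAL1- cells to 5.69, 5.27 and 4.66 in PDGFRA+ cells, 5.96, 4.47 and 5.35 in PDGFRA- cells, and 6.82, 5.58 and 5.81 in GAL1+ cells. GAL1- cells were again below all others, and the PDGFRA+ and PDGFRA- ranges overlapped with each other and with GAL1+ cells. Here the difference of GAL1+ over GAL1- cells was 2.06 (SE 0.25, adjusted p = 0.000126). *Cxcl1*, *Cxcl2* and *Cxcl3* are neighboring paralogs, and because reads with several alignments were counted as fractions, the split of such reads among them is uncertain.

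*Cxcl10*, the interferon-induced ligand, was at 4.39, 3.89 and 4.06 log2 CPM in GAL1- cells, at 5.11, 5.19 and 4.54 in PDGFRA+ cells, at 5.49, 4.04 and 4.62 in PDGFRA- cells, and at 6.36, 6.04 and 5.35 in GAL1+ cells of T3, T4 and T5. GAL1- cells lay below PDGFRA+ and GAL1+ cells without overlap, and the PDGFRA- library of T4 fell inside the GAL1- range. GAL1+ cells exceeded GAL1- cells by 1.81 on the log2 scale (SE 0.27, adjusted p = 0.000398). Part of *Cxcl10* (133 exon bases, 5.91% of its length in GENCODE M21) overlaps *Art3* on the opposite strand, and the sources used here do not say whether counting used the strand. *Cxcl12*, which binds Cxcr4, was the scarcest ligand per length of all its annotated exons merged. Without division by length, *Cxcl3* had the lower mean in GAL1- cells (0.35 against 0.73 log2 CPM). *Cxcl12* was at 0.03, 1.34 and 0.83 log2 CPM in GAL1- cells, 2.25, 2.11 and 0.76 in PDGFRA+ cells, 2.22, 1.90 and 1.80 in PDGFRA- cells and 2.93, 2.55 and 1.74 in GAL1+ cells. GAL1+ and PDGFRA- cells were above GAL1- cells in every tumor, and the PDGFRA+ library of T5 was at the level of its GAL1- partner. The rise of *Cxcl12* from GAL1- to GAL1+ cells was 1.67 (SE 0.41, adjusted p = 0.00625). Its call was lost without T3, at a difference of 1.06 (adjusted p = 0.0590).

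The membrane-bound ligands *Cxcl16* and *Cx3cl1* moved in opposite directions. *Cxcl16* was at 2.79, 4.63 and 4.42 log2 CPM in GAL1- cells of T3, T4 and T5, at 6.21, 7.54 and 7.88 in PDGFRA+ cells, at 7.19, 6.58 and 8.97 in PDGFRA- cells, and at 8.36, 8.75 and 9.13 in GAL1+ cells. All GAL1- libraries were below all others, and PDGFRA- cells of T5 reached the GAL1+ range. The difference of GAL1+ over GAL1- cells was 4.80 (SE 0.44, adjusted p = 4.77e-05) and was between 4.12 and 5.57 in the 3 tumors. *Cxcl16* shares 552 exon bases (18.3% of its length in GENCODE M21) with *Zmynd15* on the opposite strand, whose mean rose from 0.38 log2 CPM in GAL1- cells over 3.32 and 4.06 in the PDGFRA+ and PDGFRA- cells to 5.02 in GAL1+ cells, so reads from the shared bases cannot be told apart if strand was not used. *Cx3cl1*, in contrast, was at 5.39, 5.19 and 5.72 log2 CPM in GAL1- cells and at 5.42, 4.92 and 5.61 in PDGFRA+ cells, against 5.16, 4.45 and 3.53 in PDGFRA- cells and 4.38, 3.10 and 4.18 in GAL1+ cells. GAL1- and PDGFRA+ cells overlapped at the top, GAL1+ cells were below both in every tumor, and PDGFRA- cells of T5 were lower than GAL1+ cells of T5. *Cx3cl1* fell by 1.55 from GAL1- to GAL1+ cells (SE 0.37, adjusted p = 0.00519).

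*Cxcl14*, a ligand made constitutively in many epithelia, was level across the populations, at 5.26, 5.29 and 5.27 log2 CPM in GAL1- cells of T3, T4 and T5, at 5.32, 5.26 and 5.44 in PDGFRA+ cells, at 5.22, 5.08 and 5.30 in PDGFRA- cells, and at 5.37, 5.15 and 5.42 in GAL1+ cells. All 4 ranges overlapped. The difference of GAL1+ over GAL1- cells was 0.04 (SE 0.10, 95% interval -0.19 to 0.27, adjusted p = 0.774), and in none of the 6 comparisons did its interval pass 0.38 in either direction. The SD of *Cxcl14* over all 12 libraries was 0.104, lower than that of all but 0.693% of the 18180 genes. Among the 2627 genes within 0.5 log2 of its mean level, the median SD was 0.340, and 1.52% had an SD as low. Counting error alone, at 319.33 to 1067 reads, would give an SD of 0.0596. The other ligands had SDs from 0.801 (*Cxcl10*) to 2.02 (*Cxcl16*).

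**Figure D2:**
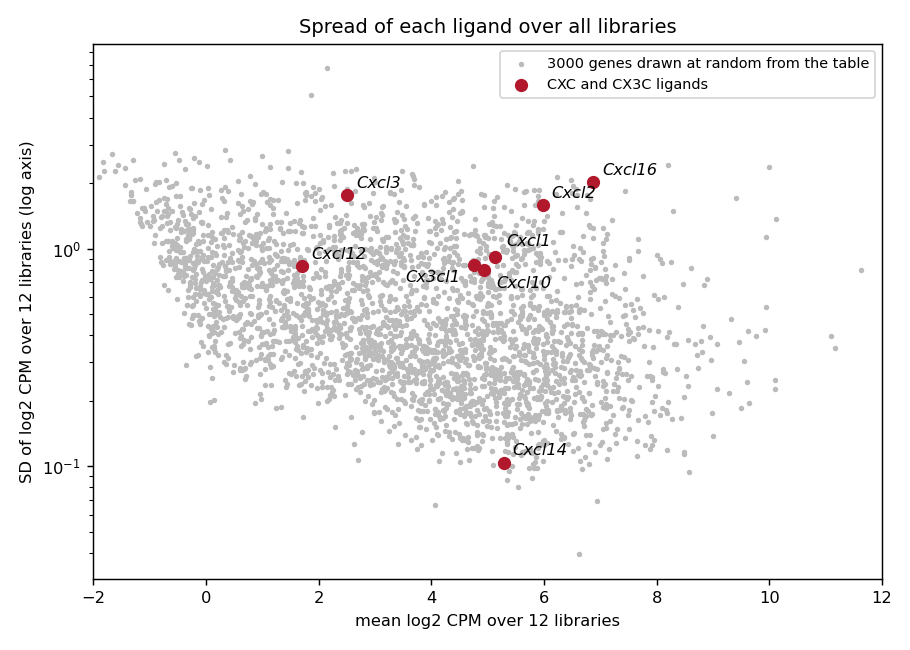
SD of log2 CPM over the 12 libraries (vertical axis, log scale) against the mean log2 CPM (horizontal axis) for the 8 ligands (red) and 3000 genes drawn at random from the table (gray). *Cxcl14* lies at the lower edge (SD 0.104) and *Cxcl16* (SD 2.02), *Cxcl3* (1.77) and *Cxcl2* (1.58) near the upper edge.

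The second question was how PDGFRA+ and GAL1+ cells, the populations the study set against each other, differed. Of the 8 ligands, 5 were lower and 1 was higher in PDGFRA+ cells, where 38.0% of all genes were called (20.9% higher and 17.0% lower). *Cxcl3* (difference -2.20, adjusted p = 0.00853), *Cxcl2* (-1.86, adjusted p = 0.00412), *Cxcl16* (-1.54, adjusted p = 0.0233), *Cxcl10* (-0.98, adjusted p = 0.0204) and *Cxcl1* (-0.87, adjusted p = 0.0229) were lower in PDGFRA+ cells of all 3 tumors. *Cx3cl1* was higher by 1.43 (adjusted p = 0.0148). The ranges of the PDGFRA+ and GAL1+ libraries did not overlap for 5 ligands, against 46.0% of all genes. *Cxcl12* (-0.70, adjusted p = 0.201) and *Cxcl14* (0.03, adjusted p = 0.842) were not called. *Cxcl2* and *Cxcl3* were picked by the study from this comparison of these libraries, so their direction here is not independent evidence. All 6 calls were lost without T3 (adjusted p from 0.0752 to 0.198), where the share of all genes called was 11.6%. Without the tumor term, where it was 17.3%, only *Cxcl2* and *Cx3cl1* were called, with *Cxcl3*, *Cxcl10*, *Cxcl16* and *Cxcl1* at adjusted p = 0.0577, 0.0826, 0.119 and 0.165. Without T4 *Cx3cl1* was lost (adjusted p = 0.0718), and without T5 *Cxcl1*, *Cxcl10* and *Cxcl16* (adjusted p = 0.121, 0.0704 and 0.0686).

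The third question was what the PDGFR sort separated. From these libraries the study reported neutrophil chemotaxis and inflammatory and immune response genes as enriched in PDGFRA- cells. Directions that repeat this report are not independent evidence. Between PDGFRA+ and PDGFRA- cells limma, as fitted here, called 0 of the 8 ligands, and 0% of all genes, the smallest adjusted p over all genes being 0.181. At an unadjusted p under 0.05 there were 3 ligands, against 11.8% of all genes (2137 genes). *Cxcl2* was lower in PDGFRA+ cells of all 3 tumors (difference -1.23, 95% interval -2.01 to -0.45, adjusted p = 0.264), as was *Cxcl3* (-1.49, interval -2.59 to -0.39, adjusted p = 0.309), and *Cx3cl1* was higher in all 3 (0.93, interval 0.11 to 1.75, adjusted p = 0.384). Each was largest in T5, where the differences were -2.22, -2.50 and 2.07, against -0.19, -0.77 and 0.46 in T4. *Cxcl1*, *Cxcl10* and *Cxcl16* had a PDGFRA+ value above the PDGFRA- value in T4 and below it in T3 and T5. No ligand had ranges that did not overlap, whereas 6.94% of all genes did.

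For every ligand but *Cxcl14*, the means of both PDGFRA populations lay between those of the GAL1 populations. The comparisons across the sorts set these differences against the spread. They share libraries with the comparisons above and are not independent of them. In PDGFRA- over GAL1- cells, 4 ligands were higher and 0 lower, against 23.1% of all genes called and 16.2% higher: *Cxcl16* by 3.63 (adjusted p = 0.000934), *Cxcl3* by 3.13 (0.00239 adjusted), *Cxcl2* 7.99-fold (0.000812 adjusted) and *Cxcl1* by 1.25 (0.00724 adjusted). The call of *Cxcl1* was lost without T3 or T5 or without the tumor term (adjusted p = 0.0998, 0.108 and 0.101). In PDGFRA+ over GAL1- cells, 3 were higher and 0 lower, against 8.27% of all genes called and 8.26% higher: *Cxcl16* by 3.26 (adjusted p = 0.00248), *Cxcl2* by 1.76 (0.0116 adjusted) and *Cxcl1* by 1.20 (0.0149 adjusted). All 3 of these calls were lost without T3, where 0 of 18180 genes were called and *Cxcl16* was at 3.19 (adjusted p = 0.0821). Those of *Cxcl1* and *Cxcl2* were lost without the tumor term (adjusted p = 0.211 and 0.111), where 3.37% of all genes were called. *Cxcl1* was also lost without T5 (adjusted p = 0.0696). *Cx3cl1* in PDGFRA+ cells differed from GAL1- cells by -0.12 (95% interval -0.94 to 0.70, adjusted p = 0.893). In PDGFRA- over GAL1+ cells, 2 were lower and 0 higher, against 20.1% of all genes called and 6.91% lower: *Cxcl10* by 1.21 (adjusted p = 0.0186) and *Cxcl1* by 0.81 (adjusted p = 0.0472), and both calls were lost without T3, without T4 or without the tumor term (adjusted p from 0.0844 to 0.267), where 4.33%, 0% and 3.99% of all genes were called. Without T5, where 20.1% of all genes were called, *Cxcl1* was lost as well (adjusted p = 0.0611), and *Cxcl2*, *Cxcl3* and *Cx3cl1* were called (adjusted p = 0.0381, 0.0317 and 0.0383). The ranges of the libraries did not overlap for 6, 4 and 0 ligands in these comparisons, against 28.9%, 24.6% and 18.7% of all genes. With the PDGFRA- library of T5 left out, an alternative chosen after seeing the data, 5 were called in PDGFRA- over GAL1+ cells, against 32.1% of all genes. Those called in addition were *Cxcl2* at -1.13 (adjusted p = 0.00932), *Cxcl16* at -1.61 (0.0241 adjusted) and *Cx3cl1* at 1.07 (0.00732 adjusted).

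**Figure D3:**
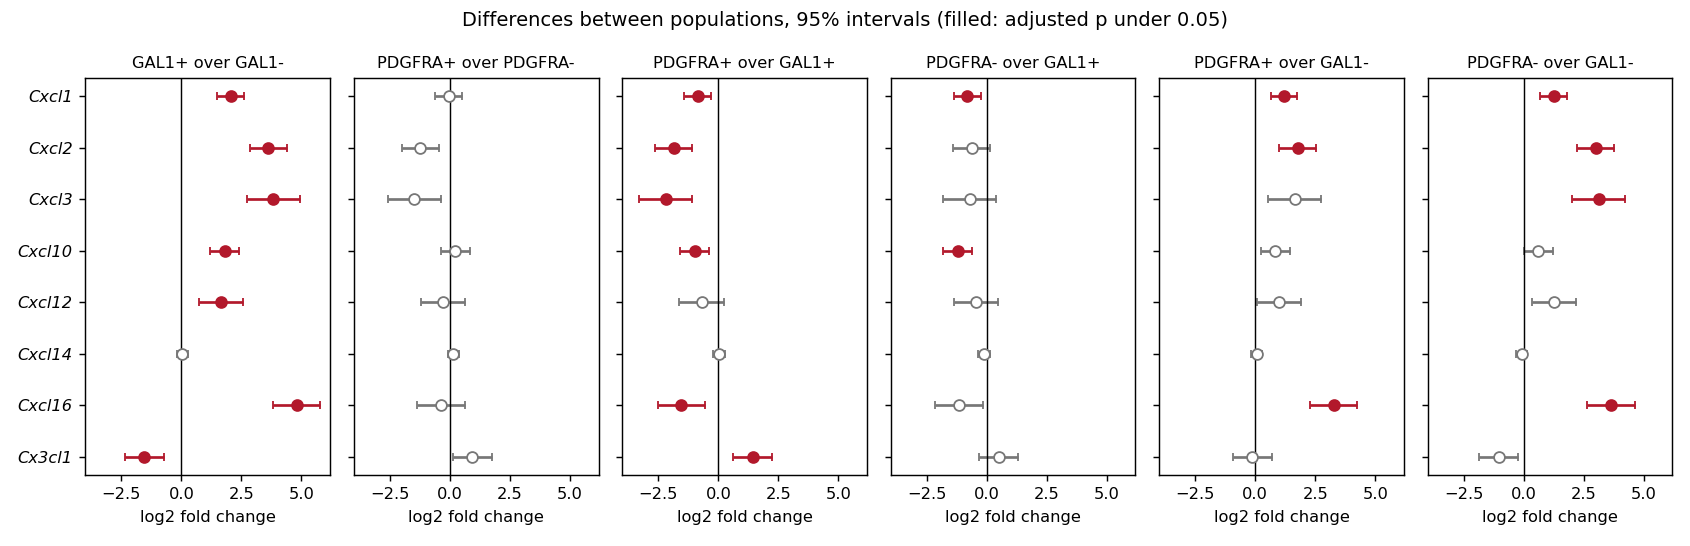
Log2 fold changes (horizontal axes) of the 8 ligands (vertical axis) in the 6 comparisons of populations, with 95% intervals from limma; filled red points had an adjusted p under 0.05. 7 ligands were called in GAL1+ over GAL1- cells, 0 in PDGFRA+ over PDGFRA- cells and 6 in PDGFRA+ over GAL1+ cells.

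In the order of mean levels, *Cxcl1*, *Cxcl2*, *Cxcl3*, *Cxcl12* and *Cxcl16* ran GAL1+, PDGFRA-, PDGFRA+ and GAL1-, *Cxcl10* ran GAL1+, PDGFRA+, PDGFRA- and GAL1-, and *Cx3cl1* ran in the reverse order of the first. *Cxcl14* ran PDGFRA+, GAL1+, GAL1- and PDGFRA-. Few neighbors in these orders, which the same means set, were called. PDGFRA+ and PDGFRA- cells were neighbors for every ligand but *Cxcl14*, and between them 0% of all genes were called. PDGFRA+ and GAL1- cells were called in *Cxcl1*, *Cxcl2* and *Cxcl16* (8.27% of all genes called). GAL1+ and PDGFRA- cells were called in *Cxcl1* (20.1% of all genes), and GAL1+ and PDGFRA+ cells in *Cxcl10* (38.0%). All of these calls were lost without T3, and that of *Cxcl1* in GAL1+ and PDGFRA- cells with any tumor left out. In *Cxcl3*, *Cxcl12*, *Cxcl14* and *Cx3cl1* no neighbors were called.

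Divided by exon length (GENCODE M21, an approximation for mm39), the makeup of the ligands changed between the GAL1 populations. The length merges all annotated exons of a gene and can exceed that of the transcripts made. In GAL1- cells the highest geometric mean was that of *Cxcl14*, at 21.2 CPM per kb, with *Cx3cl1* second, followed by *Cxcl1* at 8.58, *Cxcl10* at 7.70, *Cxcl2* at 7.11 and *Cxcl16* at 5.10 CPM per kb. In GAL1+ cells *Cxcl16* led at 142.4 CPM per kb, ahead of *Cxcl2* at 87.7, *Cxcl1* at 35.8, *Cxcl10* at 26.9 and *Cxcl14* at 21.7 CPM per kb, with *Cx3cl1* at 3.76. *Cxcl3* (0.365 and 5.23 CPM per kb) and *Cxcl12* (0.204 and 0.648) were low in both GAL1- and GAL1+ cells. PDGFRA+ and PDGFRA- cells were also led by *Cxcl16*, at 49.0 and 63.3 CPM per kb.

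The other genes of these pathways were followed as a list compiled with earlier results known. Of the other CXC ligands, 4 of 8 were measured (*Pf4*, *Cxcl9*, *Cxcl11* and *Cxcl13*), and all 4 were higher in GAL1+ than in GAL1- cells, against 28.9% of all genes. *Cxcl13*, which draws B cells, rose by 6.27 (adjusted p = 5.33e-05), and the interferon-induced *Cxcl9* and *Cxcl11* rose by 4.61 (adjusted p = 3.93e-05) and 4.12 (adjusted p = 4.76e-05). *Pf4* had 1 to 5 reads in the GAL1- and 100 to 502 reads in the GAL1+ libraries. Of 9 receptors, 6 were measured and 5 were higher in GAL1+ cells, again against 28.9% of all genes. These receptors were led by *Cx3cr1*, the Cx3cl1 receptor (5.44, adjusted p = 0.000133), and *Cxcr4*, the Cxcl12 receptor (3.74, adjusted p = 3.93e-05). *Cxcr2*, the receptor of Cxcl1, Cxcl2 and Cxcl3, rose by 1.52 (adjusted p = 0.00216), *Ackr3* by 1.02 (adjusted p = 0.00772) and *Cxcr5*, the Cxcl13 receptor, by 2.41 (adjusted p = 0.000817). *Cxcr5* had only 3 to 10.5 reads in GAL1- and 15.14 to 27 reads in GAL1+ libraries. It exceeded 1 CPM only in GAL1+ libraries of T4 and T5 and the PDGFRA- library of T5. It therefore passed the study's filter through libraries where it was high, and its call is not independent of that filter. *Cxcr6*, the Cxcl16 receptor, was low in both, at 0.75 and 0.14 log2 CPM, and was not called (0.61, adjusted p = 0.249). *Cxcr1*, *Cxcr3* and *Ackr1* were not analysed here. The sheddases *Adam10* and *Adam17* each rose by 1.67 (adjusted p = 4.27e-05 and 4.85e-05) and the protease *Mmp9* by 1.79 (adjusted p = 4.05e-05), while *Dpp4*, which trims Cxcl10 and Cxcl12, differed by -0.06 (adjusted p = 0.909).

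In PDGFRA+ over GAL1+ cells 3 of 4 other ligands, 2 of 6 receptors (*Cxcr4* and *Cxcr2*) and 3 of 4 enzymes were lower and 0 higher, against 17.0% of all genes lower, and the other 6 genes were not called. *Cxcr2*, like *Cxcl2* and *Cxcl3*, was picked by the study from this comparison of these libraries, so its direction here is not independent evidence. *Cxcl9* was lower by 1.76 (adjusted p = 0.00759) and *Cxcr4* by 1.55 (adjusted p = 0.00428). *Cx3cr1* was at 6.76 log2 CPM in PDGFRA+ and 8.31 in GAL1+ cells (adjusted p = 0.0904). Between PDGFRA+ and PDGFRA- cells 0 of these 14 genes were called.

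**Figure D4:**
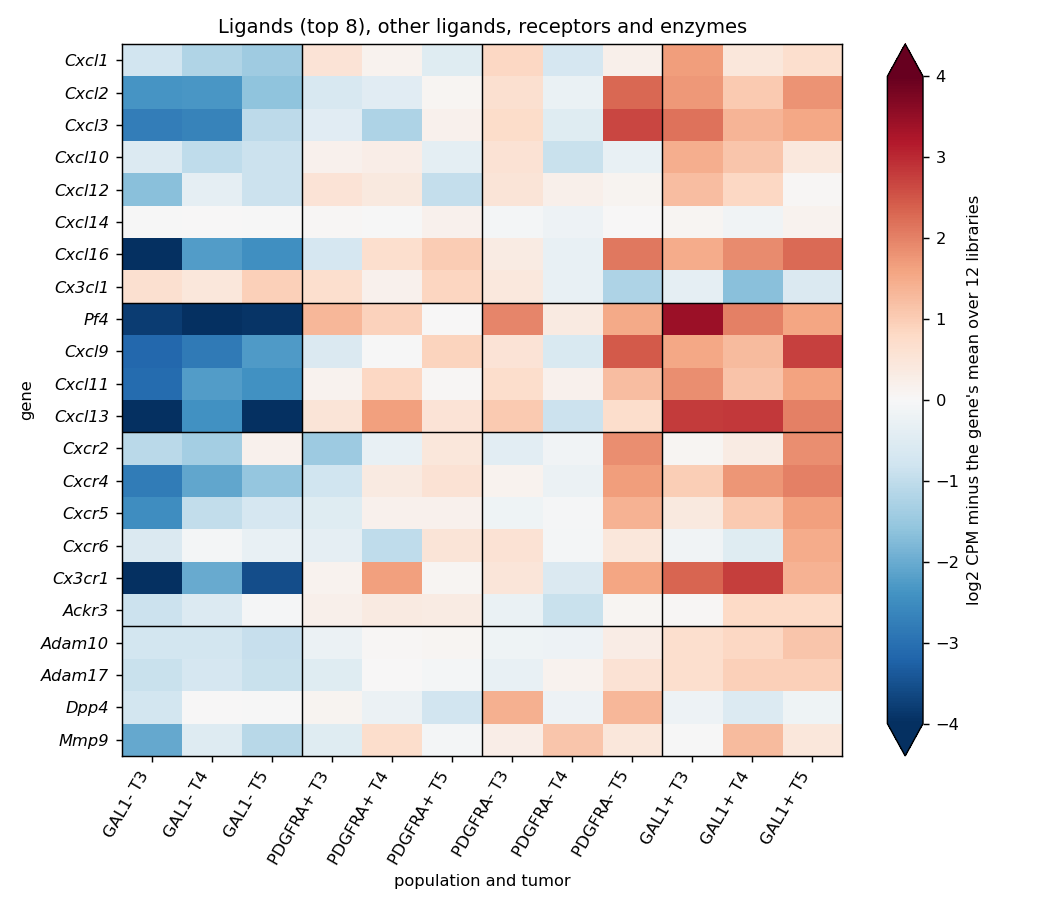
Log2 CPM of each gene (vertical axis) minus its mean over the 12 libraries (color scale, limited to 4 in either direction, which 5 of 264 cells exceed), by library (horizontal axis); horizontal lines divide the 8 ligands, the other ligands, the receptors and the enzymes. The GAL1- columns are low in most rows, *Cx3cl1* runs opposite to most rows, and *Cxcl14* is nearly blank.

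Markers of leukocytes moved with these genes. All 8 pan-leukocyte, 9 microglia and 8 macrophage markers were higher in GAL1+ than in GAL1- cells, against 28.9% of all genes. All 8 pan-leukocyte, 5 of 9 microglia and 7 of 8 macrophage markers fell from GAL1+ to PDGFRA+ cells, against 17.0% of all genes. The summed level of the pan-leukocyte markers was 60.7 to 160.2 CPM in GAL1- libraries, 510 to 1283 CPM in PDGFRA+ libraries, 542 to 2486 CPM in PDGFRA- libraries and 2284 to 3385 CPM in GAL1+ libraries. The highest PDGFRA- value was that of T5, the library with the most *Cxcl2* and *Cxcl3*, against 542 CPM in T4 and 885 CPM in T3. Macrophage markers summed to 146 to 280 CPM in GAL1- and 4266 to 5063 CPM in GAL1+ libraries. Most of this was *Fn1*, at 142 to 271 CPM and 3718 to 4584 CPM, and without it the other 7 markers summed to at most 12.1 CPM in GAL1- and to 479 to 703 CPM in GAL1+ libraries. No marker of these 3 lists was at 0 reads in all libraries of a population, and *Lyve1* was at 0 in the GAL1- library of T3. Their part in the differences of the ligands was not tested.

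Neutrophil markers were low in all populations. Of 8 listed, 5 were measured (*Ly6g*, *Retnlg* and *Camp* were not analysed here), and 1 of 5 was called between the GAL1 populations, higher in GAL1+ cells, against 28.9% of all genes higher. In PDGFRA+ over GAL1+ cells 3 of 5 were lower (median log2 fold change -1.71), against 17.0% of all genes lower. The neutrophil markers summed to 17.2 to 28.3 CPM in GAL1+, 11.1 to 51.0 CPM in PDGFRA-, 5.54 to 22.2 CPM in PDGFRA+ and 8.60 to 40.6 CPM in GAL1- libraries. T5 held the highest of these sums in every population. T and NK cells are those that Cxcl9, Cxcl10 and Cxcl11 attract. Of their markers, 1 of 8 was higher and 1 of 8 lower in GAL1+ cells, against 28.9% and 29.3% of all genes. The T and NK cell markers summed to 18.7 to 38.9 CPM in GAL1+ and 9.18 to 26.3 CPM in GAL1- libraries. All 8 endothelial and 7 pericyte markers were higher in GAL1+ cells, against 28.9% of all genes. Their sums were 308 to 370 CPM and 235 to 317 CPM in GAL1+ libraries, and 38.6 to 83.7 CPM and 24.3 to 45.7 CPM in GAL1- libraries. Oligodendrocyte precursor (OPC) markers went with *Cx3cl1*, being lower in GAL1+ than in GAL1- cells (6 of 6) and higher in PDGFRA+ than in GAL1+ cells (6 of 6). Of all genes, 29.3% and 20.9% were called in these directions. The OPC markers summed to 3579 to 4282 CPM in GAL1-, 2816 to 4080 CPM in PDGFRA+, 968 to 3023 CPM in PDGFRA- and 478 to 1341 CPM in GAL1+ libraries. Of the astrocyte markers 3 of 6, and of the neuron markers 2 of 5, were lower in GAL1+ than in GAL1- cells, against 29.3% of all genes lower. The others were not called. The largest upward differences were 1.12 among the astrocyte and 0.53 among the neuron markers. The median over the 5 neuron markers was -1.45, so an uncalled neuron marker also fell. The neuron markers summed to 5.61 to 34.3 CPM over all libraries. No marker of any list was called between PDGFRA+ and PDGFRA- cells, and the part of these lists in the results was not tested.

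Over the 12 libraries, with the tumor means subtracted, most of the ligands ran together. As a description of libraries that share tumors and sorts, Pearson's r was 0.978 between *Cxcl2* and *Cxcl3*, 0.973 between *Cxcl1* and *Cxcl16*, and 0.943 between *Cxcl1* and *Cxcl2*. It was 0.961 between *Cxcl2* and *Cxcl16*, 0.926 between *Cxcl3* and *Cxcl16*, and 0.899 between *Cxcl1* and *Cxcl3*. *Cx3cl1* was negative with every ligand but *Cxcl14* (r = 0.19), from -0.62 to -0.85. *Cxcl14* had r from -0.09 to 0.25 with the others. Genes like each ligand were searched for with the ligands themselves and predicted genes (Gm followed by digits, or names ending in Rik) left out. The most alike were *Ccl2* for *Cxcl1* (r = 0.994), *Thap6* for *Cxcl2* (0.997), *Nr1h3* for *Cxcl3* (0.995), *Arsb* for *Cxcl10* (0.992), *Tmem154* for *Cxcl12* (0.970), *Naip2* for *Cxcl16* (0.999) and *Sox9* for *Cx3cl1* (0.994). Such likeness was common: of the genes searched, 978 had r above 0.95 with *Cxcl16*, 1004 with *Cxcl1* and 880 with *Cxcl2*, against 284 with *Cxcl3*, 199 with *Cx3cl1*, 97 with *Cxcl10* and 14 with *Cxcl12*. For *Cxcl14* the closest was *Topbp1* (r = 0.903), and 0 of the genes searched exceeded 0.95. Without subtracting the tumor means, r was 0.310 for *Topbp1* with *Cxcl14* and 0.682 for *Tmem154* with *Cxcl12*.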

How the data were processed

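Bulk RNA-seq of 12 libraries was analysed, from 4 sorted populations of 3 tumors each. As the study's methods state, libraries were made from total RNA with the SMARTer Stranded Total RNAseq v3 Pico kit, and the authors used fastp for trimming, STAR with 2 passes for alignment to mm39 and featureCounts for exon counts, with reads of several alignments counted as fractions (versions and strand setting are not given in the sources used here). They kept genes with CPM above 1 in at least 3 samples and applied TMM and voom. The deposited values are log2 CPM with an offset of 0.5 read. Everything printed was computed from these.

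Reads were recovered by taking each library's lowest value as 0 reads, and 41.3% to 59.2% of values came out within 0.01 of a whole number. Floors and counting SDs cover counting error only, and 95% intervals come from the limma fit over libraries.

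limma 3.58.1 (R 4.3.3) was fitted to the log2 values of all 18180 genes and 12 samples, with population and tumor terms and a variance prior that followed mean level (residual df 6, prior df 3.49). Calls used a Benjamini-Hochberg adjusted p under 0.05. Tumor numbers in the labels pair the libraries: deviations from population means had a mean correlation of 0.486 (18 pairs, 0.140 to 0.662) within a tumor and -0.243 (36 pairs) between tumors. Other settings (11, and 1 chosen after seeing the data) are described in the closing section. Named genes were the 8 ligands, listed pathway and marker genes, and for each ligand the most correlated genes. Ligands, lists and rules were chosen with earlier results of these data known. Figures were drawn with matplotlib 3.10.9. 1 item of the genotype is not reported here.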

Additional observations from a re-analysis of the deposited data

How the results depend on the processing

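Under 11 other settings, and 1 chosen after seeing the data for the comparisons with PDGFRA- cells, 491 of 552 recomputed fold changes kept their direction and their side of the threshold. In GAL1+ over GAL1- cells 7 ligands were called in every alternative except without T3 (6), with 44.4% to 61.9% of all genes called. In PDGFRA- over GAL1- cells 3 to 6 (from 4) were called, with 5.06% to 27.8% of all genes called. In PDGFRA+ over PDGFRA- cells 0 were called throughout, as were 0% of all genes. Without the tumor term, that is with no replicate block, the counts were 2 (from 6) in PDGFRA+ over GAL1+, 0 (from 2) in PDGFRA- over GAL1+ and 1 (from 3) in PDGFRA+ over GAL1- cells. There 17.3% (from 38.0%), 3.99% (from 20.1%) and 3.37% (from 8.27%) of all genes were called. Leaving out each tumor in turn gave 0 to 5, 0 to 4 and 0 to 3 in these comparisons, with 11.6% to 26.7%, 0% to 20.1% and 0% to 6.19% of all genes called. In PDGFRA- over GAL1+ cells 1 was called without the mean-variance trend, 1 after quantile normalization and 5 without the PDGFRA- library of T5. There 14.8%, 17.3% and 32.1% of all genes were called. In PDGFRA+ over GAL1- cells 5 were called when only those groups were fitted, with 18.6% of all genes called. The cause of these changes was not tested.

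All reversals were of uncalled values. *Cxcl14* turned to -0.0092 after quantile normalization in GAL1+ over GAL1- (-0.021 to 0.13 with a tumor left out), to -0.13 after median centring in PDGFRA+ over GAL1+ (-0.013 to 0.066 with a tumor left out), and to -0.0067 and -0.046 after quantile normalization and median centring in PDGFRA+ over GAL1- cells. In PDGFRA+ over PDGFRA- cells leaving out a tumor or the PDGFRA- library of T5 gave -0.48 to 0.26 for *Cxcl1*, -0.23 to 0.54 for *Cxcl10*, -0.51 to 0.12 for *Cxcl12* and -1.04 to 0.070 for *Cxcl16*. Median centring shifted the median of all genes by -0.16, -0.14 and -0.11 in PDGFRA+ over GAL1+, PDGFRA- over GAL1+ and PDGFRA+ over GAL1-, and quantile normalization by -0.13 and -0.14 in PDGFRA+ and PDGFRA- over GAL1-. With 3 tumors, differences such as that of *Cxcl16* between the PDGFRA populations (95% interval -1.36 to 0.62) were not resolved.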
